A study of Mus musculus with 4 samples.

Results

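Integrins are the adhesion receptors with which leukocytes hold on to vessel walls, matrix and one another, and 9 of their genes were described here: Itgax, Itgam, Itgal, Itgb2, Itga4, Itgb1, Itgav and Itgb8, which encode subunits, and Icam1, which encodes a counter-receptor. They are 9 of the 32285 genes of the expression matrices and were chosen by name, with earlier results of these data known. Their chromatin was read in the 58 peaks, of 127216 shared by both libraries, that lay within 10 kb of the start sites the files give for them. An integrin is a pair of an alpha and a beta chain. Itgal (CD11a), Itgam (CD11b) and Itgax (CD11c) each pair with the beta-2 chain Itgb2 (CD18) to form LFA-1, Mac-1 and p150,95, of which LFA-1 and Mac-1 bind Icam1. Itga4 pairs with Itgb1 to form VLA-4, a receptor for Vcam1 and fibronectin, and Itgav pairs with Itgb8 to form a receptor that releases active TGF-beta from its latent complex. Integrin activity is set largely by signals from inside the cell, so RNA says little about how firmly a cell adheres.

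The nuclei came from livers of C57BL/6J mice at D0, with no DDC, and at D5, on day 5 of a diet with the bile duct toxin DDC (3,5-diethoxycarbonyl-1,4-dihydrocollidine, at 0.1% of the chow). Live CD45+ CD64- CD11c+ cells were sorted, and RNA and open chromatin were read from the same nuclei (10x Multiome). Each day was 1 library, and how many animals it held is not given in the sources used here. A difference between D0 and D5 can therefore not be told apart from a difference between 2 libraries, no test was possible, and every interval below is a 95% interval for counting error only. CD11c, the product of Itgax, was a gate of the sort, and the part of the sort in the breadth of Itgax over the classes was not tested.

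The RNA libraries held 44496348 unique molecular identifiers (UMIs) in 16260 called barcodes at D0 and 94374499 in 27873 at D5, and 591 barcode sequences occurred in both. After filters, 10975 nuclei at D0 and 19859 at D5 were kept. Clusters were named from marker genes alone, which the ending "-like" marks. The classes, with their nuclei at D0 and D5, were type 1 conventional dendritic cells (cDC1-like, 1763 and 3211), type 2 (cDC2-like, 2136 and 5888), dendritic cell precursors (preDC-like, 213 and 1384), mature Ccr7+ DC-like cells (303 and 986), plasmacytoid pDC-like cells (2327 and 2030), macrophage-like (558 and 489), nonclassical monocyte-like (121 and 204), NK cell-like (1445 and 1108) and T cell-like nuclei (345 and 433). Some names are weaker than others. The cDC2-like class joined clusters c3, c6 and c11, with 4, 4 and 6 cDC2 markers raised 2-fold or more. Cluster c6 was led by Adgrl3, Frmd5 and Adam23. The 10 NK cell markers summed to 5530 and 4820 CPM (counts scaled to a total of 1e6) in T cell-like nuclei at D0 and D5, close to the 6739 and 5892 CPM of NK cell-like nuclei, and the T cell-like cluster was led by Cd3e, Klra7, Cd3d, Trdc and Tcrg-C1. Macrophage-like nuclei at D0 held 1627 CPM of macrophage markers beside 2024 CPM of classical monocyte, 1586 CPM of cDC2 and 1368 CPM of cDC1 markers, although at D5 the macrophage markers led with 3775 CPM. In preDC-like nuclei the pDC markers summed to 6988 and 4426 CPM and the cDC2 markers to 826 and 957 CPM. The classical monocyte markers summed to 2818 and 2431 CPM in preDC-like nuclei, the highest of the classes. The preDC markers, which include the pDC genes Tcf4, Runx2 and Siglech, summed to 7939 and 5604 CPM there and to more, 12412 and 12091 CPM, in pDC-like nuclei. Nuclei with UMIs of at least 2 markers of another lineage (lymphoid against dendritic) made up 11.3% to 38.6% of a class. A neutrophil-like cluster of 6 and 96 nuclei was too small to be compared as a class. A further 1758 nuclei at D0 and 4030 at D5 stayed unnamed and are in no class value below, the cDC2-like values included. The largest unnamed cluster at D5, with 75 and 2006 nuclei, was led by Ccl17, Dab2 and Il1r2. Another, with 369 and 1318 nuclei, had 3 cDC2 and 3 macrophage markers raised. A cluster of 580 and 87 nuclei had 10 endothelial markers raised. Levels are given in CPM, the UMIs of a gene scaled to the total UMIs of the class, and they are compared between classes or days for 1 gene at a time.

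Of the 7 genes with a promoter in the RefSeq table used (GRCm38.p6, matched by symbol), 3 are shown because results below turn on these genes. They are Icam1, whose promoter lay in the peak that changed in NK cell-like nuclei, Itgam, whose peaks on either side of the promoter differed between classes, and Itgav, whose RNA moved in opposite directions in different classes. Each is the 250 bases before the start used in that table, 5' to 3' on the + strand. Capitals mark matches to 3 motifs searched on both strands, GGAANTTCC (NF-kB-type), TTCNNNGAA (STAT-type) and GAGGAA (ETS-type, TTCCTC when it lies on the other strand).

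Icam1, chr9:21015690-21015939: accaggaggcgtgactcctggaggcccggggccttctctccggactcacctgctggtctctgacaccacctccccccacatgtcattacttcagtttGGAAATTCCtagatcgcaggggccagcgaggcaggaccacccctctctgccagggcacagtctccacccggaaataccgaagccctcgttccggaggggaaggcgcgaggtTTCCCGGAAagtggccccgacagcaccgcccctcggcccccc
Itgam, chr7:128062390-128062639: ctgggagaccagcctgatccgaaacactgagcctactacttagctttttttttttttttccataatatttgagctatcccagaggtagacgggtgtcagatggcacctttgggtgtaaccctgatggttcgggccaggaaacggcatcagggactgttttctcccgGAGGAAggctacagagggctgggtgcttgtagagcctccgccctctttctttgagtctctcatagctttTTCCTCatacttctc
Itgav, chr2:83724147-83724396: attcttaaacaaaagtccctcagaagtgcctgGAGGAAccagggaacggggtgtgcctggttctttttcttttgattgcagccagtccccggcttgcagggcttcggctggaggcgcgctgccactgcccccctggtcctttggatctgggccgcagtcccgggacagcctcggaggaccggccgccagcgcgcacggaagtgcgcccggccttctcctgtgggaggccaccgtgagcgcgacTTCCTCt

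In the Icam1 promoter, GGAAATTCC began 153 bases before the start and TTCCCGGAA 42 bases before it. Among 32851 promoters of the same length, 0.813% held the first motif and 7.02% the second, and of the 7 matched members Icam1 alone held either. GAGGAA stood 84 and its reverse complement 15 bases before the Itgam start, and 218 and 7 bases before the Itgav start used here, chr2:83724397, whereas the RefSeq span of Itgav begins upstream of it at chr2:83722303. This short motif was found in 23.3% of all promoters and in 3 of the 7 members. A match of letters is a description of the sequence and not evidence that a factor binds.

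**Figure D1:**
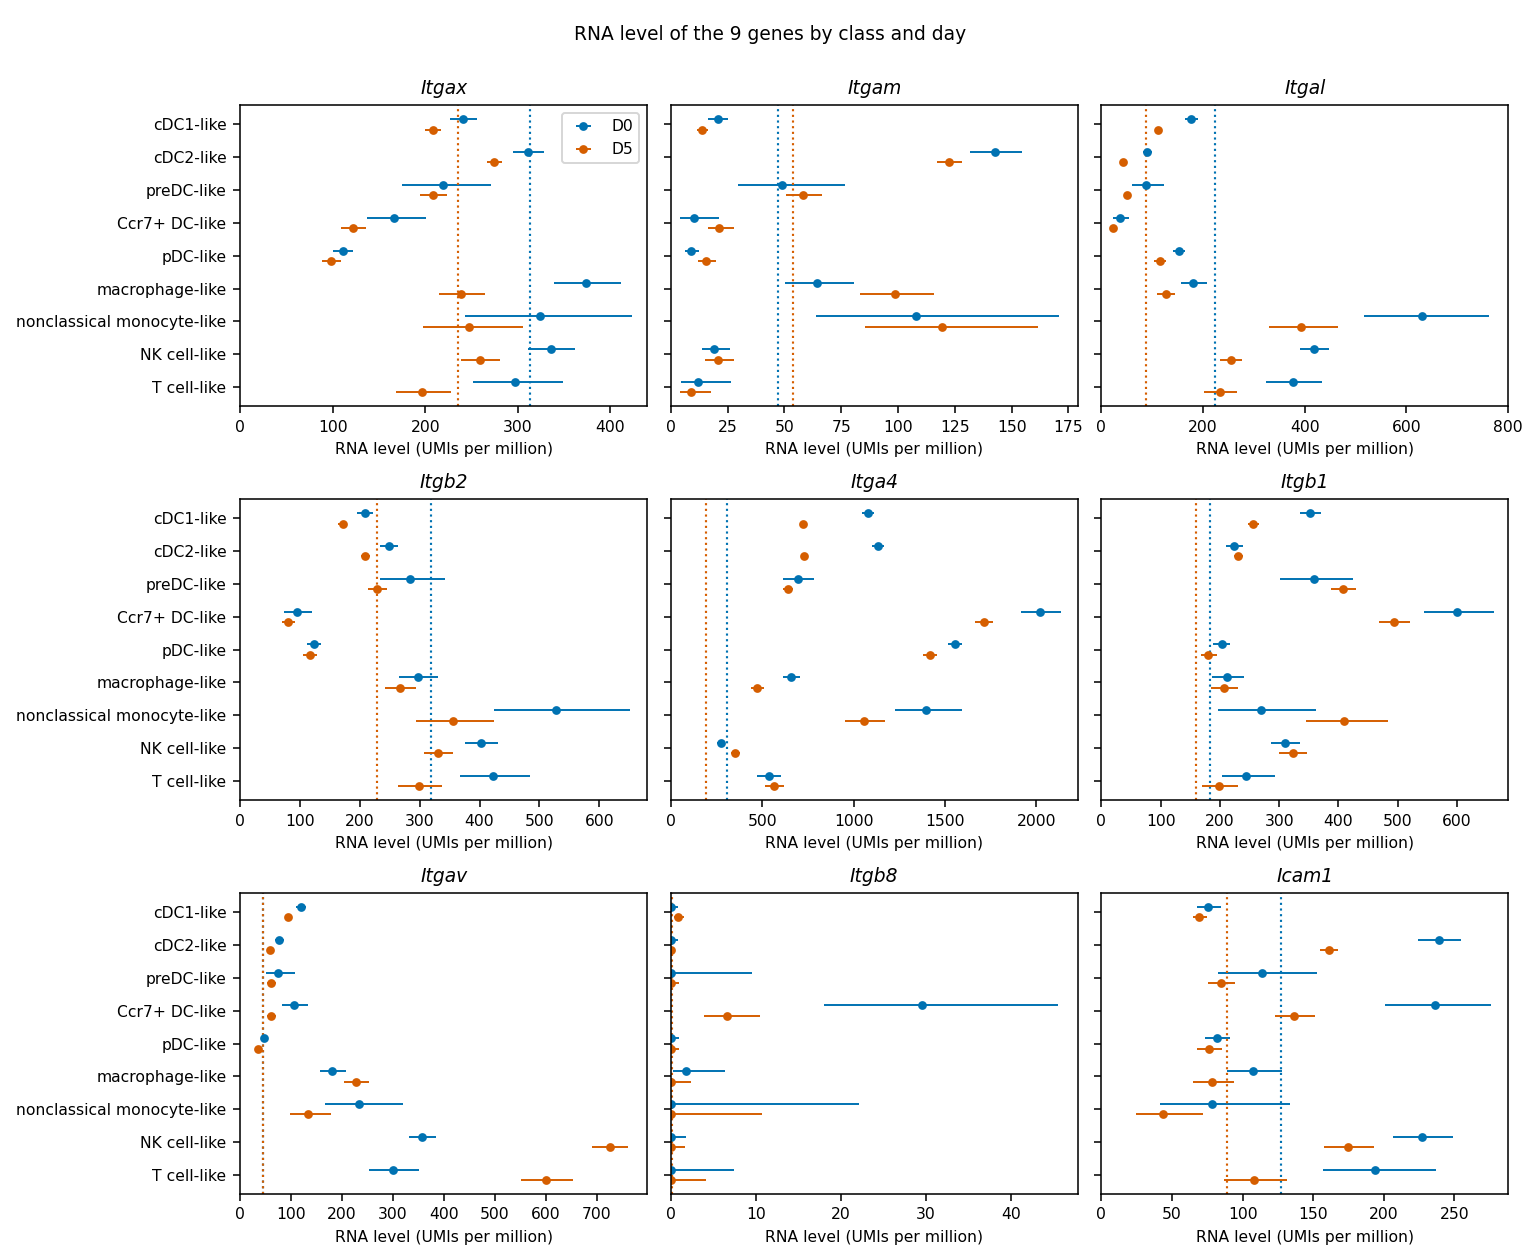
RNA levels of the 9 genes (CPM, with 95% Poisson intervals as bars) in the 9 classes, with D0 in blue and D5 in orange. Dotted lines give the level in uncalled barcodes of the same day. Itgb8 is highest in Ccr7+ DC-like nuclei, whereas Itgax lies within 3.37-fold over all classes at D0.

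Itgax, the alpha chain of p150,95, was the most evenly spread of the beta-2 partners. At D0 its level ran from 111 CPM (101 to 122) in pDC-like to 374 CPM (339 to 411) in macrophage-like nuclei, a 3.37-fold range, and at D5 from 98.1 CPM (88.4 to 109) in pDC-like to 275 CPM (267 to 283) in cDC2-like nuclei, a 2.80-fold range. At D0 the intervals of neighbouring classes overlapped from macrophage-like down to Ccr7+ DC-like nuclei, and pDC-like nuclei alone stood below their neighbour. NK cell-like nuclei held 336 CPM at D0 and 259 CPM at D5, beside 313 and 236 CPM in uncalled barcodes with at most 100 UMIs, which carry free RNA. How much of the Itgax signal in any class was free RNA was not tested. In T cell-like nuclei Itgax went from 297 to 196 CPM, a log2 ratio of -0.60 (-0.92 to -0.27). It stayed past 1.5-fold in 5 of 6 alternatives (-0.77 to -0.41). In macrophage-like nuclei Itgax fell from 374 to 239 CPM, a log2 ratio of -0.65 (-0.85 to -0.44) that stayed past 1.5-fold in 2 of 7 alternatives (-0.86 to -0.31, with TMM scaling -0.41), while the macrophage marker sum given above was higher at D5, and the part of this in the decrease was not tested.

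Itgam, the alpha chain of Mac-1, was a myeloid gene in these nuclei. Among the 9 classes it was highest in cDC2-like nuclei, at 143 CPM (132 to 155) at D0 and 123 CPM (117 to 128) at D5, with nonclassical monocyte-like nuclei next at 108 CPM (64.0 to 171) and 119 CPM (85.6 to 162), and the intervals of these classes overlapped on both days. The neutrophil-like cluster, outside these classes, held 142 CPM (95.5 to 202) at D5 and 4 UMIs at D0. At D0 the lowest level was 8.79 CPM (6.08 to 12.3) in pDC-like nuclei, 16.3-fold below cDC2-like nuclei. A UMI of Itgam was found in 22.6% of cDC2-like nuclei at D0 and 26.7% at D5, at median depths of 1810.5 and 2622.5 UMIs, and in 1.42% and 2.76% of pDC-like nuclei, at 1539 and 1737 UMIs. After every nucleus was thinned to 1000 UMIs, the shares were 12.4% and 11.4% in cDC2-like and 0.945% and 1.38% in pDC-like nuclei. The D5 to D0 ratios of Itgam had both signs, with 2 of 8 tested classes below 0 (1 with TMM scaling), whereas those of Itgax were below 0 in 9 of 9 classes (6 with TMM scaling). These were cDC2-like (log2 ratio -0.22, -0.35 to -0.09) and cDC1-like nuclei (20.6 and 13.8 CPM, -0.58, -0.97 to -0.18), both short of 1.5-fold. Itgam was higher at D5 in macrophage-like nuclei (64.2 and 98.6 CPM, log2 ratio 0.62, interval 0.21 to 1.04) and in pDC-like nuclei (8.79 and 15.6 CPM, 0.82, 0.19 to 1.48). In Ccr7+ DC-like nuclei it went from 10.3 to 21.5 CPM on 7 and 58 UMIs, and this interval held 0 (-0.08 to 2.43). The macrophage-like difference stayed past 1.5-fold in 5 of 7 alternatives (0.19 to 0.86). Neutrophil markers summed to more at D5 in every class. The sums went from 109 to 134 CPM in macrophage-like, from 11.4 to 49.6 CPM in pDC-like and from 10.3 to 34.0 CPM in Ccr7+ DC-like nuclei. Where Itgam was lower they rose too, from 28.4 to 46.5 CPM in cDC2-like and from 10.2 to 29.6 CPM in cDC1-like nuclei. The part of neutrophil RNA in the Itgam levels was not tested. Uncalled barcodes held 47.2 and 53.8 CPM of Itgam.

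Itgal, the alpha chain of LFA-1, was the gene with the broadest decrease. It was highest in nonclassical monocyte-like nuclei at 630 CPM (516 to 763) at D0 and 393 CPM (329 to 465) at D5, followed by NK cell-like nuclei at 419 CPM (391 to 448) and 255 CPM (234 to 277) and by T cell-like nuclei at 376 and 233 CPM. Ccr7+ DC-like nuclei were lowest at 36.9 CPM (23.9 to 54.5) and 22.2 CPM (16.9 to 28.6), 17.1-fold and 17.7-fold below the top class. NK cell-like and T cell-like nuclei did not differ beyond their intervals on either day, and neither did cDC2-like and preDC-like nuclei. In cDC2-like nuclei Itgal went from 89.8 CPM (81.0 to 99.4) to 42.7 CPM (39.6 to 46.0), a log2 ratio of -1.07 (-1.25 to -0.89). The level was lower at D5 in 9 of 9 classes, by 1.5-fold or more in 7, with log2 ratios from -1.07 to -0.41. Over the 9 classes together, 18.7% of all pairs of gene and class tested were lower by that fold and 8.44% higher. In Ccr7+ DC-like nuclei, 1 of the 7, the interval held 0 (-0.73, -1.43 to 0.00). With trimmed-mean (TMM) scaling all 9 ratios stayed below 0, and 2 passed 1.5-fold. Uncalled barcodes moved the same way, from 224 CPM (206 to 243) to 88.2 CPM (80.5 to 96.5), and the part of free RNA in the decrease was not tested. The NK cell markers also summed to less at D5 in the 7 classes other than the lymphoid ones, between 579 and 751 CPM at D0 and between 280 and 476 CPM at D5, and their part was not tested.

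Itgb2, the shared beta-2 chain, followed its partners in part. It was highest in nonclassical monocyte-like nuclei, at 528 CPM (424 to 651) at D0 and 355 CPM (295 to 424) at D5, and lowest in Ccr7+ DC-like nuclei, at 94.4 CPM (72.7 to 121) and 80.6 CPM (70.3 to 92.1). At D0 the intervals of nonclassical monocyte-like, T cell-like and then NK cell-like nuclei overlapped, and those 3 classes stood above the rest. Uncalled barcodes held 319 CPM (297 to 341) at D0, above the value of the other 6 classes but within the intervals of macrophage-like and preDC-like nuclei, and 228 CPM (215 to 241) at D5, and the part of free RNA in the levels and in their decrease was not tested. Itgb2 passed 1.5-fold between the days in no class, with log2 ratios from -0.57 to -0.08, of which 9 were below 0 and 5 with TMM scaling. Over the 18 sums of 9 classes on 2 days, log2 levels of Itgb2 correlated with those of Itgax (Pearson r 0.82) and Itgal (0.79) and less with Itgam (0.41). These are descriptions, since the sums share libraries and depth.

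**Figure D2:**
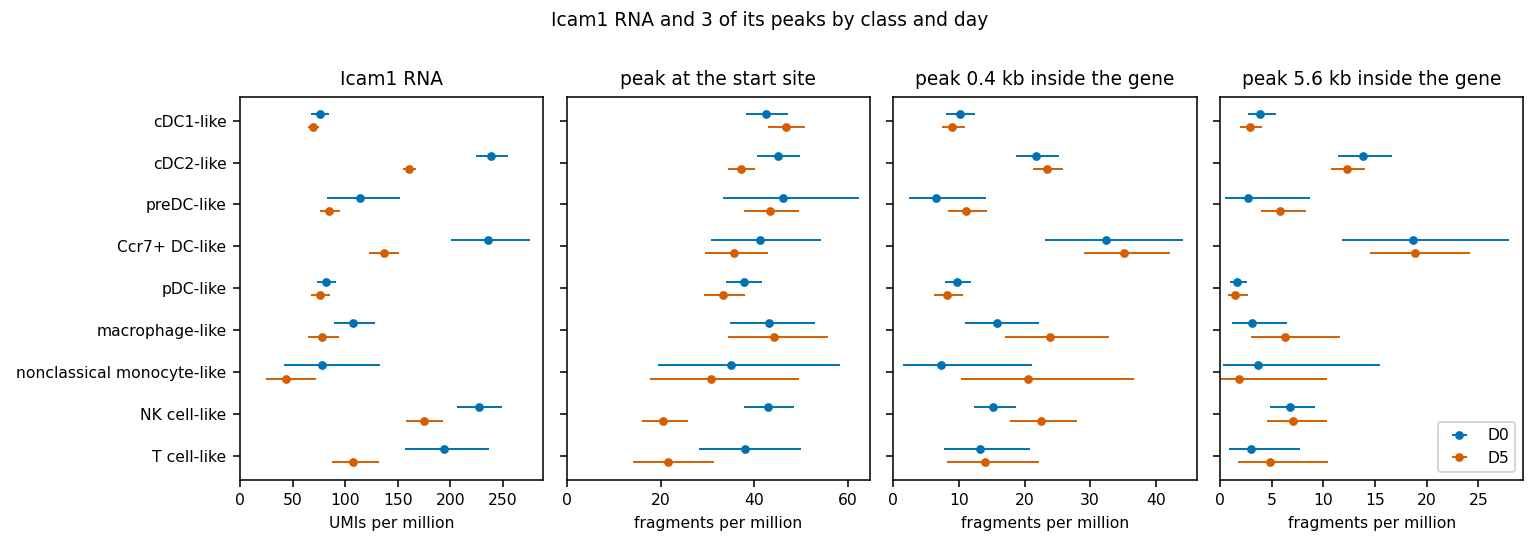
Icam1 RNA (CPM) and fragments (CPM) in the peak over its start site and in the 2 peaks inside the gene, by class and day, with 95% intervals. The start-site peak fell in NK cell-like nuclei from 42.9 to 20.4, while the intragenic peaks were highest in Ccr7+ DC-like nuclei.

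Icam1, the counter-receptor of LFA-1 and Mac-1, was unevenly spread within the cDC2-like class. As a whole that class held 239 CPM at D0, with an interval that overlapped those of Ccr7+ DC-like and NK cell-like nuclei. At D5 it held 161 CPM, below the NK cell-like value but with overlapping intervals. The Clec10a+ state held 386 CPM (361 to 414) at D0 and 251 CPM (241 to 262) at D5. Of the 3 clusters that make up the cDC2-like class, the one that holds the Clec10a+ state had 388 and 252 CPM, while the other two, c11 and c6, had 86.6 and 65.4 CPM at D0 and 53.3 and 53.2 CPM at D5. The first of these clusters held 48.7% of cDC2-like nuclei at D0 and 51.3% at D5. A UMI of Icam1 was found in 41.2% (38.1 to 44.2) of Clec10a+ nuclei at D0 and 38.4% (36.7 to 40.2) at D5, and in 13.9% and 18.5% of cDC1-like nuclei. Thinned to 1000 UMIs these shares were 25.4% and 18.6% in Clec10a+ and 5.67% and 6.07% in cDC1-like nuclei, and the median depth of cDC1-like nuclei was 2152 and 3091 UMIs. Outside the cDC2-like class, Ccr7+ DC-like nuclei held 236 CPM (201 to 276) at D0 and 137 CPM (123 to 151) at D5, NK cell-like nuclei 227 CPM (207 to 249) and 175 CPM (158 to 193), and T cell-like nuclei 194 CPM (157 to 237) and 108 CPM (87.2 to 132). Every other class compared lay at 114 CPM or below, the neutrophil-like cluster held 264 CPM (200 to 343) at D5, beside 127 and 89.2 CPM in uncalled barcodes. Icam1 was lower at D5 in 9 of 9 classes (7 with TMM scaling) and by 1.5-fold or more in 3, Ccr7+ DC-like (log2 ratio -0.79, -1.06 to -0.51), T cell-like (-0.85, -1.27 to -0.42) and nonclassical monocyte-like nuclei (-0.84, -2.01 to 0.35), beside the 18.7% of all pairs of gene and class given above. The last rested on 13 and 15 UMIs and its interval held 0. In the Clec10a+ state the log2 ratio was -0.62 (-0.74 to -0.51), and -0.40 with TMM scaling. It was 1 of 3 members lower there by 1.5-fold or more, with Itgal (-0.98, -1.24 to -0.72) and Itga4 (-0.63, -0.70 to -0.57), where 17.9% of all genes were lower and 8.75% higher. That state was itself made of a subcluster mostly from D0 (555 and 37 nuclei) and another mostly from D5 (480 and 2913).

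Itga4, the alpha chain of VLA-4, was led by mature and plasmacytoid dendritic cells. Ccr7+ DC-like nuclei held 2022 CPM (1916 to 2132) at D0 and 1714 CPM (1665 to 1764) at D5, and pDC-like nuclei 1553 CPM (1514 to 1593) and 1418 CPM (1381 to 1457). NK cell-like nuclei were lowest at 274 CPM (252 to 298) and 352 CPM (327 to 377), 7.37-fold and 4.88-fold below the top. In Ccr7+ DC-like nuclei, 92.1% at D0 and 91.7% at D5 had a UMI of Itga4, or 80.9% and 74.9% after thinning, against thinned shares of 19.3% and 25.9% in NK cell-like nuclei. Uncalled barcodes held 306 and 193 CPM. Itga4 fell in cDC2-like nuclei from 1133 CPM (1101 to 1166) to 727 CPM (714 to 740), a log2 ratio of -0.64 (-0.69 to -0.59) that became -0.36 with TMM scaling. The ratio was below 0 in 7 of 9 classes (5 with TMM scaling) and past 1.5-fold in cDC2-like nuclei alone without that scaling and in none with it. In cDC1-like nuclei, just short of the fold, Itga4 went from 1078 to 726 CPM (-0.57, -0.62 to -0.52), and macrophage-like (-0.47) and nonclassical monocyte-like nuclei (-0.40) came next. All 3 cDC2-like clusters had lower values at D5, c6 with 1568 and 1263 CPM, the Clec10a+ cluster with 1280 and 827 CPM and c11 with 625 and 427 CPM. Their log2 ratios were -0.31, -0.63 and -0.55, past 1.5-fold in the Clec10a+ cluster alone. Of cDC2-like nuclei, c6 made up 20.2% at D0 and 10.1% at D5, and c11 31.1% and 38.6%. The part of these shares in the class ratio was not tested. In NK cell-like nuclei the ratio went the other way, at 0.36 (0.20 to 0.52), short of 1.5-fold.

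Itgb1, the beta chain of VLA-4 and of many matrix receptors, was also highest in Ccr7+ DC-like nuclei, at 601 CPM (544 to 662) at D0 and 494 CPM (468 to 521) at D5. At D0 this was 1.67 times the level of preDC-like nuclei, 359 CPM (302 to 424). At D5 its interval overlapped that of nonclassical monocyte-like nuclei, 410 CPM (345 to 484). The lowest value was in pDC-like nuclei, at 203 CPM (189 to 218) and 181 CPM (167 to 195), but the interval overlapped that of the next class on each day. For Itga4, pDC-like nuclei were second, and over the 18 sums the 2 chains of VLA-4 correlated at 0.25. In nonclassical monocyte-like nuclei Itgb1 rose from 270 CPM (197 to 361) to 410 CPM (345 to 484), a log2 ratio of 0.60 (0.11 to 1.12) on 45 and 141 UMIs, past 1.5-fold in 2 of 4 alternatives (0.28 to 0.84). Uncalled barcodes held 183 and 159 CPM of Itgb1.

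Itgav, the alpha chain of several receptors for RGD-bearing ligands, changed most in lymphoid nuclei. In NK cell-like nuclei it rose from 357 CPM (331 to 384) at D0 to 725 CPM (690 to 762) at D5, a log2 ratio of 1.02 (0.90 to 1.15), and in T cell-like nuclei from 299 CPM (253 to 352) to 600 CPM (550 to 654), 1.0 (0.74 to 1.28). These classes share NK markers, as given above, and are not independent observations. The share of nuclei with a UMI of Itgav went from 31.8% (29.4 to 34.3) to 54.3% (51.3 to 57.3) in NK cell-like and from 28.1% (23.4 to 33.2) to 52.0% (47.1 to 56.8) in T cell-like nuclei. After thinning to 1000 UMIs the shares were 26.6% and 41.5% in NK cell-like, 22.3% and 37.4% in T cell-like, and 4.17% and 2.91% in pDC-like nuclei, the lowest class. Uncalled barcodes held 45.7 CPM at D0 and 45.0 CPM at D5, a level that did not move beyond its interval. Mixed-lineage nuclei made up 22.9% of NK cell-like nuclei at D0 and 35.1% at D5, and over the 7 alternatives, leaving such nuclei out among them, the NK cell-like ratio ran from 1.02 to 1.24. In Ccr7+ DC-like nuclei Itgav fell from 106 to 61.0 CPM (log2 ratio -0.80, -1.21 to -0.38), and in nonclassical monocyte-like nuclei from 234 to 134 CPM (-0.81, -1.45 to -0.15). The highest class stood 7.47-fold above the lowest at D0 and 20.1-fold at D5.

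Itgb8, the beta chain with which Itgav releases TGF-beta, was highest in Ccr7+ DC-like nuclei, and 13 of its 18 sums of class and day held 0 UMIs. They held 20 UMIs at D0, from 11 of 303 nuclei, or 29.5 CPM (18.0 to 45.6), and 18 UMIs at D5, from 11 of 986 nuclei, or 6.66 CPM (3.95 to 10.5). All other kept nuclei together held 5 UMIs in 10672 nuclei at D0, or 0.220 CPM, and 13 UMIs in 18873 nuclei at D5, or 0.246 CPM. The Ccr7+ DC-like level was thus 134 times (48.8 to 457) that of the rest at D0 and 27.1 times (12.5 to 60.1) at D5. Of the 13 UMIs at D5, 9 were in cDC1-like nuclei, at 0.828 CPM (0.379 to 1.57). In pDC-like nuclei 0 of 2327 nuclei at D0 had a UMI, which by the limit of 3 counts allows a share of nuclei with a UMI of up to 0.129%, and uncalled barcodes held 0 and 0.185 CPM. Between the days the log2 ratio in Ccr7+ DC-like nuclei was -2.15 (-3.15 to -1.15), and it ran from -3.65 to -1.61 over the 7 alternatives. The share of these nuclei with a UMI was 3.63% (1.83 to 6.40) at D0 and 1.12% (0.558 to 1.99) at D5, at median depths of 2008 and 2450.5 UMIs, and the thinned shares of 1.98% (0.730 to 4.26) and 0.507% (0.165 to 1.18) had overlapping intervals.

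**Figure D3:**
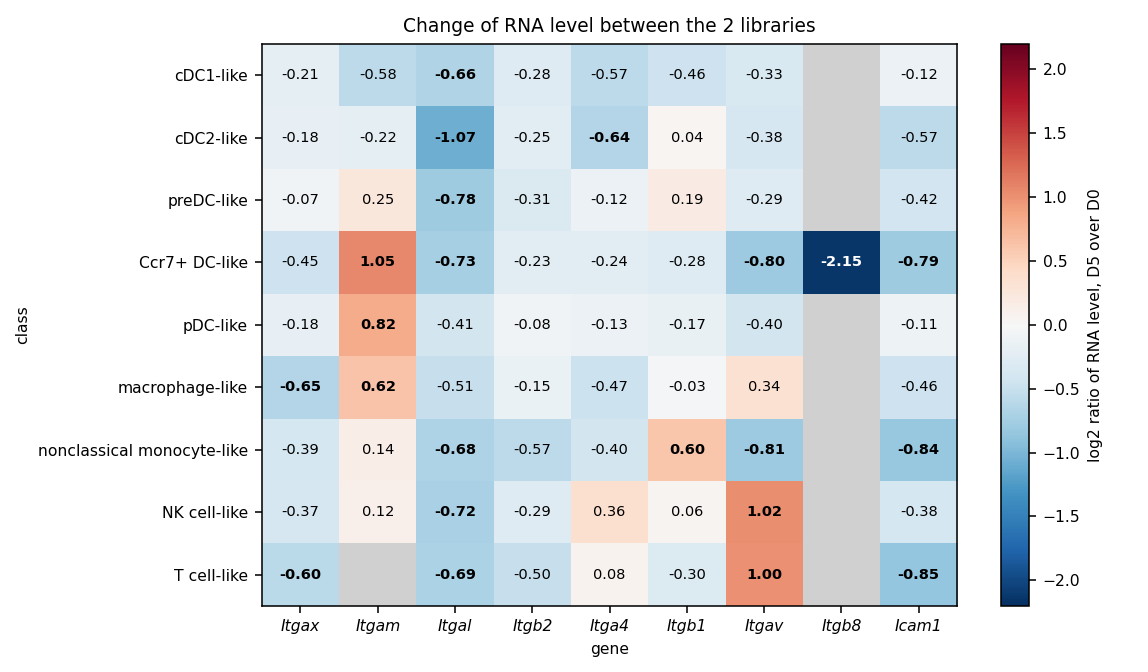
Log2 ratio of the level at D5 over D0 for each gene and class (blue lower, red higher), with values of 1.5-fold or more in bold and pairs under 20 UMIs in grey. Itgal is negative in every class, whereas Itgav is near 1 in both lymphoid classes and negative in Ccr7+ DC-like nuclei.

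Of 72 pairs of gene and class with at least 20 UMIs over both days, 6 were higher and 16 lower at D5 by 1.5-fold or more. TMM scaling raised all log2 ratios by 0.15 to 0.32 depending on the class, and the split was then 6 higher and 7 lower, where between 9.61% and 23.4% of all genes in a class were higher and between 7.73% and 12.8% lower. The shares that follow are without this scaling. These counts are read against all genes tested in the same class. In cDC2-like nuclei 2 of 8 genes were lower and 0 higher, where 20.1% of all genes were lower and 6.18% higher. In cDC1-like nuclei 1 of 8 was lower and 0 higher, where 22.7% and 4.09% of all genes were. In preDC-like nuclei 1 of 8 was lower and 0 higher, with 21% and 13.5% of all genes. Ccr7+ DC-like nuclei had 4 of 9 lower and 1 higher, beside 15.9% and 14% of all genes. In pDC-like nuclei 1 of 8 was higher and 0 lower, where 6.11% of all genes were higher and 12% lower. Macrophage-like nuclei had 1 of 8 higher and 1 lower (7.56% and 23.1% of all genes) and nonclassical monocyte-like nuclei 1 of 8 higher and 3 lower (13.5% and 19.7%). For NK cell-like nuclei the counts were 1 of 8 higher and 1 lower (6.5% and 16%), and for T cell-like nuclei 1 of 7 higher and 3 lower (10.1% and 18%). With so few genes per class these shares are descriptions only. The median log2 ratio of the measured members in cDC2-like nuclei was -0.31 (-0.03 with TMM scaling), beside -0.17 over all genes tested without that scaling.

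The study compared precursors with Clec10a+ cDC2, and both states came from the same library on each day. At D5 Icam1 was lower in preDC-like than in Clec10a+ nuclei, 84.9 CPM (75.8 to 94.8) against 251 CPM (241 to 262), a log2 ratio of -1.56 (-1.74 to -1.39). Itgam was lower too, 58.2 against 118 CPM (-1.02, -1.23 to -0.80), and Itgb1 was higher, 408 against 233 CPM (0.81, 0.71 to 0.91). At D0, Icam1 (-1.77, -2.24 to -1.33), Itgam (-1.51, -2.26 to -0.84) and Itga4 (-0.88, -1.06 to -0.70) were lower in preDC-like nuclei, and Itgb1 reached 0.56 (0.28 to 0.83), short of 1.5-fold. Of 8 members tested, 1 was higher and 2 lower at D5, where 31.5% of all genes were higher and 9.73% lower, and 0 were higher and 3 lower at D0, where the shares were 36.2% and 15.8%. TMM scaling lowered all ratios by 0.47 at D0 and 0.36 at D5, and the count became 0 higher and 4 lower on each day, with Itgax now among the lower members on both days (-0.73 and -0.62), where 16.5% of all genes were higher and 29.3% lower at D0 and 14.5% and 17.4% at D5. The preDC-like name rests on markers that pDC-like nuclei share, and the Clec10a+ name on few raised markers, as given above.

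**Figure D4:**
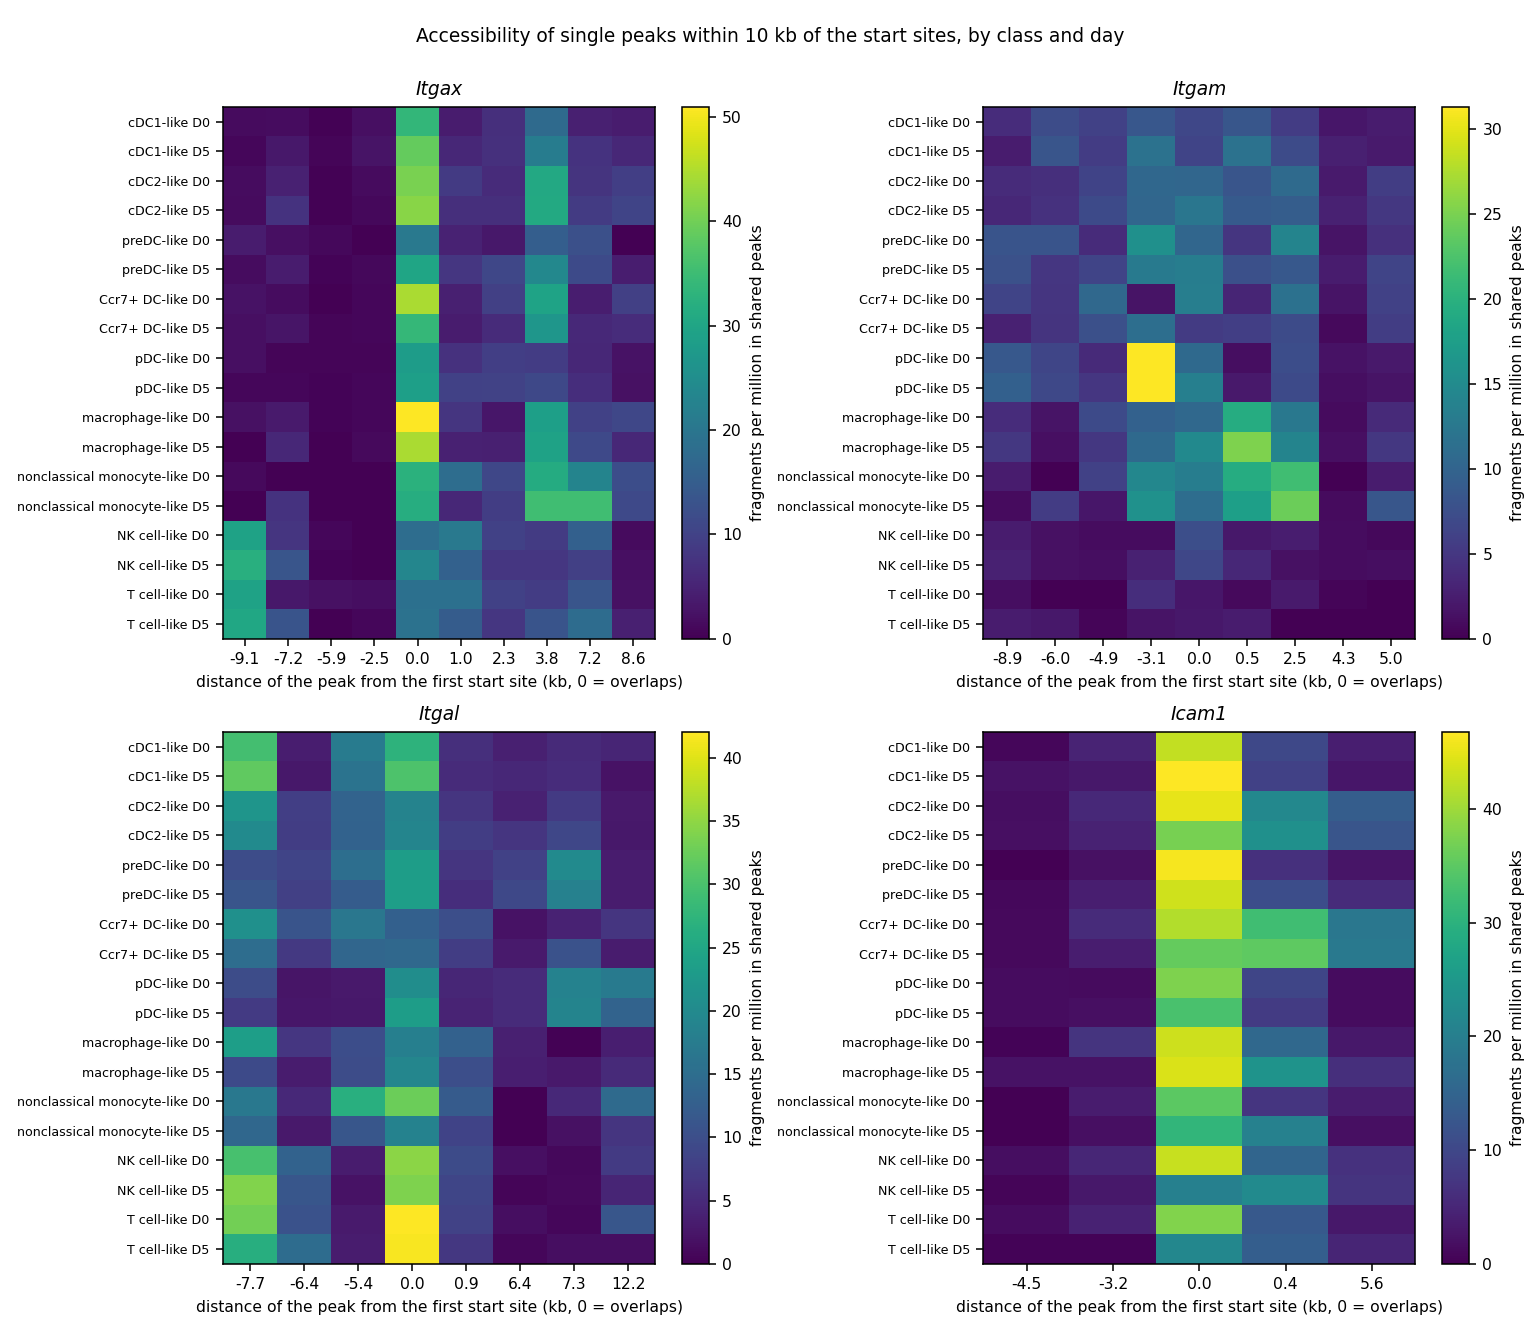
Fragments (CPM) in each shared peak near Itgax, Itgam, Itgal and Icam1 (columns, by distance in kb from the first start site) for every class and day (rows), with a colour scale for each panel. The peak 9.1 kb upstream of Itgax is open in NK cell-like and T cell-like nuclei alone among these classes.

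Single peaks near the start sites marked out classes. Accessibility is given as CPM of fragments, scaled to the fragments in all shared peaks of the class, with coordinates in mm10. At Itgax, the peak at chr7:128119559-128120442, 9.1 kb before the start, held 29.3 (25.1 to 33.9) in NK cell-like and 29.3 (20.8 to 40.0) in T cell-like nuclei at D0, and 32.2 and 30.4 at D5, while no other class exceeded 3.80 on either day. Inside the Itgax gene, the peak at chr7:128133324-128134219 had the other order, with 30.7 in cDC2-like and 28.8 in macrophage-like nuclei at D0 against 8.84 in NK cell-like nuclei. Lymphoid and myeloid nuclei with similar Itgax RNA thus differed in which nearby peaks were open. Whether these peaks act on Itgax was not tested.

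At Itgam, the peak at chr7:128058564-128059507, 3.1 kb before the start, was highest in pDC-like nuclei, at 31.2 (27.9 to 34.8) at D0 and 31.3 (27.3 to 35.7) at D5, although their Itgam RNA was the lowest of the classes at D0. The peak over the Itgam promoter shown above (chr7:128062192-128063055) held 10.7 and 13.5 in pDC-like and 10.4 and 12.3 in cDC2-like nuclei. Just inside the gene, the peak at chr7:128063178-128063978 was highest in macrophage-like nuclei, at 19.3 (13.9 to 26.2) and 25.2 (18.0 to 34.3), and held 1.12 and 2.2 in pDC-like nuclei. Over the 18 sums this intragenic peak correlated with Itgam RNA at 0.77, against 0.54 for all Itgam peaks together. This value, and those of 0.70 for Itgal and 0.68 for Icam1 below, are the highest among the peaks of each gene. At Itgal, the peak over the first start site (chr7:127295788-127296743) held 42.0 and 41.6 in T cell-like and 34.7 and 33.9 in NK cell-like nuclei, against 13 and 14.1 in Ccr7+ DC-like nuclei, and correlated with Itgal RNA at 0.70. A peak inside Itgal (chr7:127303543-127304314) ran the other way, with 18.6 in pDC-like and 20.1 in preDC-like nuclei at D0 against 0.834 in NK cell-like nuclei, and its correlation with Itgal RNA was -0.58. The files give start sites for Itgal over a span, and a start site of Gm31897 lies in the same window, so these peaks cannot be assigned to Itgal alone.

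At Icam1, the peak over the start site (chr9:21014941-21015999), which holds the promoter shown above, was alike in most classes and correlated with Icam1 RNA at 0.03. It held 42.9 (37.8 to 48.4) in NK cell-like nuclei at D0 and 20.4 (16.0 to 25.8) at D5, from 257 and 71.5 fragments, a log2 ratio of -1.07 (-1.47 to -0.68). T cell-like nuclei had 37.9 and 21.6 (-0.81, -1.54 to -0.11). Among all single shared peaks tested, 15.3% were lower by 1.5-fold or more in NK cell-like and 9.59% in T cell-like nuclei. The peak at chr9:21021595-21022523, 5.6 kb inside the gene, was highest in Ccr7+ DC-like nuclei (18.6, 11.8 to 27.9, and 18.9, 14.5 to 24.2) and cDC2-like nuclei (13.9, 11.4 to 16.7, and 12.3, 10.7 to 14.0), while pDC-like nuclei held 1.61 and 1.49, and it correlated with Icam1 RNA at 0.68. At Itga4, the start-site peak (chr2:79254618-79255664) was highest in Ccr7+ DC-like nuclei, at 123 (105 to 145) and 116 (104 to 128), and lowest in NK cell-like nuclei, at 36.1 and 51.0, the same ends as for Itga4 RNA. Near Itgav, the peak with the promoter shown above (chr2:83724002-83724879) held 48.4 at D0 and 55.5 at D5 in NK cell-like nuclei, where the log2 ratio of RNA was 1.02. The start-site peak of Itgb8 (chr12:119238149-119239033) held 6.88 (3.06 to 13.3) and 8.82 (5.91 to 12.7) in Ccr7+ DC-like nuclei and 12.3 (8.01 to 18.0) and 5.36 (2.38 to 10.4) in macrophage-like nuclei, with overlapping intervals on each day.

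Summed over the peaks of a gene, 2 of 78 pairs of gene and class were higher and 2 lower at D5 by 1.5-fold or more, beside 2.67% and 6.17% of all pairs of gene and class. The higher pairs were Itgax in preDC-like nuclei (63.5 and 95.6 CPM of fragments, log2 ratio 0.59, 0.20 to 1.01) and Itga4 in T cell-like nuclei (49.9 and 77.5, 0.63, 0.17 to 1.11), where 4.21% and 3.19% of all genes were higher. The lower pairs were Itgal in nonclassical monocyte-like nuclei (112 and 63.4, -0.83, -1.51 to -0.16) and Itgb8 in macrophage-like nuclei (19.1 and 8.82, -1.11, -2.11 to -0.21), where 6.72% and 5.66% of all genes were lower. Itgal, lower in RNA in 7 classes, passed this fold in accessibility in 1. In single peaks, 38 of 350 tested pairs of peak and class were higher and 38 lower, beside 7.9% and 13.8% of all such pairs. Between preDC-like and Clec10a+ nuclei at D0, summed accessibility was lower in preDC-like nuclei at 5 of 9 members by 1.5-fold or more, at Itgax (-0.93, -1.35 to -0.54), Itgav (-0.90, -1.51 to -0.34), Icam1 (-0.83, -1.27 to -0.42), Itga4 (-0.59, -0.94 to -0.26) and, on 4 and 41 fragments with an interval that held 0, Itgb8 (-1.22, -3.16 to 0.24), where 11.4% of all genes were lower and 12.7% higher. At D5 no tested member passed this fold, where 5.62% of all genes were lower and 13.7% higher, but Icam1 (-0.50, -0.68 to -0.31), Itgav (-0.48, -0.73 to -0.24), Itga4 (-0.45, -0.60 to -0.30) Itgb2 (-0.39, -0.50 to -0.27), Itgax (-0.31, -0.47 to -0.16) and Itgb1 (-0.25, -0.47 to -0.02) had intervals below 0 on that day, and Itgam (0.23, 0.04 to 0.43) had one above 0.

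The remaining genes of the integrin system were read from 4 lists. In cDC2-like nuclei, 12 of 18 other integrin subunits had at least 20 UMIs, and 0 were higher and 5 lower at D5. Of all genes tested in this class, 6.18% were higher and 20.1% lower. The median log2 ratio of these subunits was -0.41 (-0.12 with TMM scaling), beside -0.17 over all genes without that scaling. Itga9, whose product binds tenascin and Vcam1, went from 5.97 to 1.62 CPM (-1.88, -2.72 to -1.04). Itga3, a laminin receptor chain, had 2.15 and 1.02 CPM, and its interval held 0 (-2.32 to 0.27). Itgae, which encodes the alpha-E chain (CD103), a marker of cDC1 in many tissues, held 159 CPM in cDC1-like nuclei at D0, 9.05 times the level of the next class. Of 12 integrin ligands 5 were measured, and 0 were higher and 2 lower, beside the same shares of all genes, with a median of -0.29 (-0.01 with TMM scaling). They were Fn1, the gene of fibronectin (25.8 and 10.3 CPM, -1.33, -1.68 to -0.97), and Thy1, a T cell surface protein (6.69 and 1.32 CPM, -2.34, -3.21 to -1.48). The highest Fn1 level at D0, 143 CPM, was in macrophage-like nuclei, and Itga9 was among the leading genes of the macrophage-like cluster. Macrophage markers summed to 109 and 75.6 CPM in cDC2-like nuclei at D0 and D5. Fn1 was also among the leading genes of a cDC2-like subcluster with 555 nuclei at D0 and 37 at D5. The part of these in the decreases of Fn1 and Itga9 was not tested.

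Among 14 of 15 measured genes of inside-out activation, 0 were higher and 2 lower, beside the same 6.18% and 20.1% of all genes, with a median of -0.26 (0.02 with TMM scaling). Skap1, a T cell adaptor, had 12.2 and 4.38 CPM (-1.47, -2.01 to -0.93) and Fyb, its partner, 339 and 184 CPM (-0.88, -0.97 to -0.79). Thy1 and Skap1 are lymphoid genes, and the 10 NK cell markers summed to 653 and 413 CPM in cDC2-like nuclei on these days. The part of lymphoid RNA in these decreases was not tested. Vcl, which ties integrins to actin, was highest in preDC-like nuclei at D0, at 452 CPM, 2.58 times the next class. Of 11 genes of TGF-beta storage and signalling 9 were measured, and 0 were higher and 3 lower, again beside 6.18% and 20.1%, with a median of -0.28 (0.00 with TMM scaling). Ltbp3, a protein of the latent complex, had 4.06 and 1.26 CPM (-1.69, -2.68 to -0.67), and Lrrc32, which displays latent TGF-beta on the cell surface, had 11.7 and 5.89 CPM (-0.99, -1.50 to -0.47).

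For each member the genes of most similar pattern over the 18 sums were named, up to 3 each, with Pearson's r of log2 levels. They were Gadd45g (0.86), Atg2a (0.86) and Pvt1 (0.86) for Itgax, Tlr2 (0.94), Cyp4f16 (0.93) and Abca9 (0.92) for Itgam, and Pag1 (0.94), Ptk2b (0.93) and Gm28379 (0.93) for Itgal. Itgb2 was most like Gm4070 (0.94), Bin2 (0.93) and Ddx28 (0.91), Itga4 like Sort1 (0.88) and Nhlrc2 (0.87), and Itgb1 like Ifi209, Nrde2 and Hsf2 (0.78 each). Icam1 was most like Klri2 (0.89), Rhof (0.87) and Slc44a5 (0.86). For Itgb8 the same measure named Gm48505 (0.95), Zfp872 (0.94) and Clu (0.93), but 13 of its 18 sums were at 0 UMIs, so nothing is read from these values. Itgav was most like Gm13684 (0.96), Pde3b (0.90) and Tspan32 (0.90). Gm13684 starts 35.3 kb downstream of the Itgav start, inside the RefSeq span of Itgav, so reads of these genes may have been shared and both values are uncertain. In NK cell-like nuclei Gm13684 held 110 CPM (96.3 to 126) at D0 and 209 CPM (190 to 229) at D5.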

How the data were processed

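RNA and chromatin counts of 2 libraries (10x Multiome, D0 and D5) were used. The deposited matrices hold raw counts, UMIs per gene and cut sites per peak, produced by the authors with Cell Ranger ARC 2.0.2 on mm10 according to the submitters' processing notes, while the headers of the RNA matrices name cellranger 6.0.2. Peaks had been called in each library alone, so only overlapping peaks were compared, and peak counts were divided by 2 to give fragments. The joint D5 matrix was joined to RNA by identical gene counts (27873 of 27873 barcodes).

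Nuclei with at least 1000 UMIs, at most 10% mitochondrial UMIs and a doublet score under 0.2 (Scrublet in scanpy 1.11.5) were kept, which removed 23.1% at D0 and 25.4% at D5 as doublets. Clustering (2000 variable genes, 30 components, 15 neighbours, Leiden resolution 1.0) left out the members and list genes. A cluster took a class name if 3 or more of that class's markers stood 2-fold or more above the other clusters. The name was withheld where another class or lineage had a comparable number of such markers. It was also withheld where another class led the top genes, or where depth was low and the top genes held no marker. An otherwise unnamed cluster was called preDC-like if 3 or more preDC markers stood 2-fold or more above the pooled cDC2-like nuclei. The Clec10a+ state took cDC2-like subclusters with 3 or more of its markers 1.25-fold or more above the other subclusters. The preDC-like nuclei formed a cluster of their own and were not taken from within cDC2, which departs from the plan. Members and lists were chosen with earlier results of these data known. Sums per class gave CPM with exact Poisson intervals, ratios with exact conditional binomial intervals and shares with exact binomial intervals (95%). A gene with at least 20 UMIs over both sums was called at 1.5-fold, and a share of 0 allows up to 3 counts. With 1 library per day no p-value was computed. Named list genes were the 2 with the largest ratio in cDC2-like nuclei and the one with the highest ratio of the top class to the next at D0. Similar genes, 3 for each member, were ranked on log2(CPM + 1), and 1 of them is not reported here. Alternatives were TMM factors (edgeR 4.0.16, R 4.3.3), no count filter, no doublet removal, at least 2000 UMIs, equal weights, resolution 0.6, other windows and peak sets, and leaving out mixed-lineage nuclei. The ratio script was tested on simulated data. Promoters came from RefSeq (GRCm38.p6).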

Additional observations from a re-analysis of the deposited data

Results flagged for a closer look

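The D5 to D0 change of Itgav had opposite directions in different classes. Its log2 ratio was 1.02 in NK cell-like and 1.0 in T cell-like nuclei, and -0.80 in Ccr7+ DC-like and -0.81 in nonclassical monocyte-like nuclei, each beyond its counting interval. The difference between the classes was not tested, since each day has 1 library.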

How the results depend on the processing

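All 22 pairs of gene and class past 1.5-fold kept their direction under each alternative that had the class, and 5 kept the fold under each: Itgal in cDC2-like, Itgam in pDC-like, Itgav in NK cell-like and T cell-like, and Itgb8 in Ccr7+ DC-like nuclei. The count of pairs higher at D5 was 6, and 3 among nuclei with at least 2000 UMIs, where 6 classes remained. The count lower at D5 was 16, and 7 with TMM factors. For preDC-like against Clec10a+ nuclei, TMM factors gave 0 higher and 4 lower at D5 in place of 1 and 2, and both subclusters at resolution 0.8 and equal weights gave 1 higher at D0 in place of 0. Without removal of doublets no Clec10a+ state could be named, so that comparison has no value there. For summed accessibility, 1 pair in place of 2 was higher at D5 with all peaks of each library and with at least 2000 peak counts. Spearman correlation named 8 of the 27 similar genes again. The highest class was the same in 14 of 18 pairs of gene and day without removal of doublets, and also in 14 of 18 shares after thinning. Resolution 0.6 and the removal of mixed-lineage nuclei each left 8 classes. The causes of these moves were not tested. No paired analysis was possible because each day has 1 library. Low counts limit Itgb8 everywhere, and every member in nonclassical monocyte-like nuclei.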
